A study of Homo sapiens with 3 samples.

Results

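The subunits of AMP-activated protein kinase (AMPK) and the 2 kinases best known to switch it on were examined in HCT-116, a cell line from a human colorectal cancer. They are 8 genes: PRKAA1 and PRKAA2 (α subunits), PRKAB1 and PRKAB2 (β subunits), PRKAG1 and PRKAG2 (γ subunits), STK11 (which encodes LKB1) and CAMKK2. They were chosen by symbol among probe sets annotated to exactly 1 gene, which gave 28 probe sets, and all 8 were among the 12321 genes tested. The arrays were of SCD1-WT cells given 100 nM T-3764518 for 24 h, SCD1-KO cells (the knockout), and SCD1-WT cells given DMSO for 24 h. T-3764518 inhibits stearoyl-CoA desaturase-1 (SCD1, gene SCD), which makes monounsaturated fatty acids. The labels give no vehicle or time for the SCD1-KO array and no dose. The dose above is from the methods, and DMSO and 24 h for SCD1-KO cells are from the text that accompanies the array data. SCD1-KO cells were made with Cas9 and a pair of guides that delete part of SCD, and clones were then picked by PCR, so knockout and clone cannot be told apart here. With 1 array per condition, no value below could be checked against a replicate, and none has a p-value. Both ratios over DMSO use the same DMSO array.

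AMPK is a sensor of cellular energy made of 1 catalytic α, 1 β and 1 γ subunit. The γ subunit binds adenine nucleotides, the β subunit holds the complex together and can bind glycogen, and the α subunit is active once a threonine of its activation loop is phosphorylated. LKB1 does this when AMP rises and CaMKK2 when calcium rises, and active AMPK restrains fatty acid synthesis through acetyl-CoA carboxylase and promotes autophagy. The paper followed AMPK by its phosphorylation. In immunoblots it saw more phospho-AMPK and phosphorylated acetyl-CoA carboxylase after 24 h of T-3764518, and more phospho-AMPK in knockout than in wild-type cells. It also silenced PRKAA1 and PRKAA2 with siRNA, checked the knockdown by qPCR, and saw T-3764518 inhibit growth more strongly. The arrays read mRNA, so no value here measures the activity of the kinase.

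Each probe set had 1 MAS5 signal, a background-corrected intensity scaled so that the mean without the outer 2% at each end was 500.1 on every array. Kept probe sets had a mean log2 signal over the arrays no lower than that of the median probe set, which was a signal of 56.6. A gene's ratio was the median over its kept probe sets, and a gene was called at 2-fold. Mean signals given for a gene are geometric means over these probe sets. The SD of the log2 ratio between probe sets of 1 gene was used as its error and measures neither cultures nor arrays. From the dimmest to the brightest quintile of probe sets it ran from 0.58 to 0.26 for T-3764518 over DMSO and from 0.60 to 0.25 for SCD1-KO over DMSO. SCD itself had a mean signal of 14919 with T-3764518, 5506 in the knockout and 2907 with DMSO, and as the deleted part was not placed on its 4 probe sets it does not check the knockout. Of the signals, 54482 on the SCD1-KO array have over 1 decimal, against 0 on the T-3764518 and DMSO arrays, and whether this array was processed in another way was not tested. The epithelial markers KRT8, KRT18 and KRT19 were at 15723, 28120 and 3025 in SCD1-KO cells, against 12259, 23407 and 2385 with DMSO. The other epithelial markers, EPCAM and CDH1, were at 6840 and 300.1 in SCD1-KO cells, against 16859 and 835 with DMSO, and both were called lower. Of the 5 intestinal markers fixed (CDX1, CDX2, VIL1, LGR5, CDH17), 2 passed the filter, with a highest signal of 115 on any array, so markers that define the intestine were low or under the filter. Of 10 markers of immune cells, endothelium and fibroblasts, 5 passed the filter (CD3E, PECAM1, COL1A1, DCN and THY1) and 0 were called. COL1A1 had a mean signal of 697 with T-3764518, 526 in the knockout and 620 with DMSO, and PECAM1 read 253 with T-3764518, 142 in the knockout and 249 with DMSO, whereas PTPRC and CD14 had no signal above 24.5.

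One of the 8 genes was called in SCD1-KO cells and none with T-3764518. PRKAA2, the α2 catalytic subunit, was 4.47-fold lower in SCD1-KO cells than with DMSO, while the other 7 genes had log2 ratios of -0.10 to 0.55. With T-3764518 all 8 lay between -0.45 and 0.34. For scale, 2.18% of all tested genes were called higher and 3.30% lower with T-3764518, and 3.12% were called higher and 3.93% lower in SCD1-KO cells. With signals scaled to 1 median in place of 1 trimmed mean, 551 genes were called higher and 163 lower with T-3764518, against 269 and 407 as deposited, and the same 1 member was called.

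The 2 α subunits parted in SCD1-KO cells. PRKAA2 (gene ID 5563) had a mean signal of 156 with T-3764518, 31.3 in the knockout and 140.0 with DMSO. The T-3764518 and DMSO arrays were thus close and the SCD1-KO array stood below both. The log2 ratio was 0.16 for T-3764518 over DMSO and -2.16 for SCD1-KO over DMSO, with SDs of 0.58 and 0.60 for its signal range. Its signal in SCD1-KO cells was below 56.6, and with signals raised to that level it was at least 2.47-fold lower. Set against T-3764518 in place of DMSO, SCD1-KO cells had 4.99-fold less PRKAA2 signal, or at least 2.76-fold less with the raised signals. In that ratio 4.52% of all genes were called higher and 3.10% lower, and PRKAA2 was the only member called.

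PRKAA2 has 5 probe sets, of which 2 passed the filter. Probe set 227892_at read 182 with T-3764518, 20.4 in the knockout and 163 with DMSO. Probe set 238489_at read 134.4 with T-3764518, 48.2 in the knockout and 120.0 with DMSO. Both therefore gave the same order of arrays, with at least 2.89-fold and at least 2.12-fold lower signals in SCD1-KO cells than with DMSO. Among the 3 probe sets below the filter, 238441_at read 260 with T-3764518, 1.75 in the knockout and 283 with DMSO. Probe set 240349_at read 84.2 with T-3764518, 8.02 in the knockout and 91.4 with DMSO. These were dim on average only through the SCD1-KO array, where they were at least 5.00-fold and at least 1.62-fold lower. The remaining probe set, 207709_at, read 85.1 with T-3764518, 38.3 in the knockout and 34.2 with DMSO. It is the only 1 of the 5 that the annotation ties to a RefSeq mRNA, and its SCD1-KO and DMSO signals were both under the filter level. In all, 4 of 5 probe sets were lower in SCD1-KO cells than with DMSO and 5 of 5 were lower than with T-3764518.

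PRKAA1 (gene ID 5562), the α1 catalytic subunit, had a mean signal of 258 with T-3764518, 233 in the knockout and 251 with DMSO. Its log2 ratios, 0.01 for T-3764518 and -0.09 for SCD1-KO, were within its SDs of 0.42 and 0.42. Its brightest probe set, 225984_at, read 1070 with T-3764518, 889 in the knockout and 1113 with DMSO. The other 3 kept probe sets ran from -0.14 to 0.30 with T-3764518 and from -0.25 to 0.09 in SCD1-KO cells, so no kept probe set of PRKAA1 came near 2-fold. The remaining probe set, 1555177_at, stayed under the filter level on all arrays, at 11.3 with T-3764518, 6.32 in the knockout and 3.80 with DMSO.

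**Figure D1:**
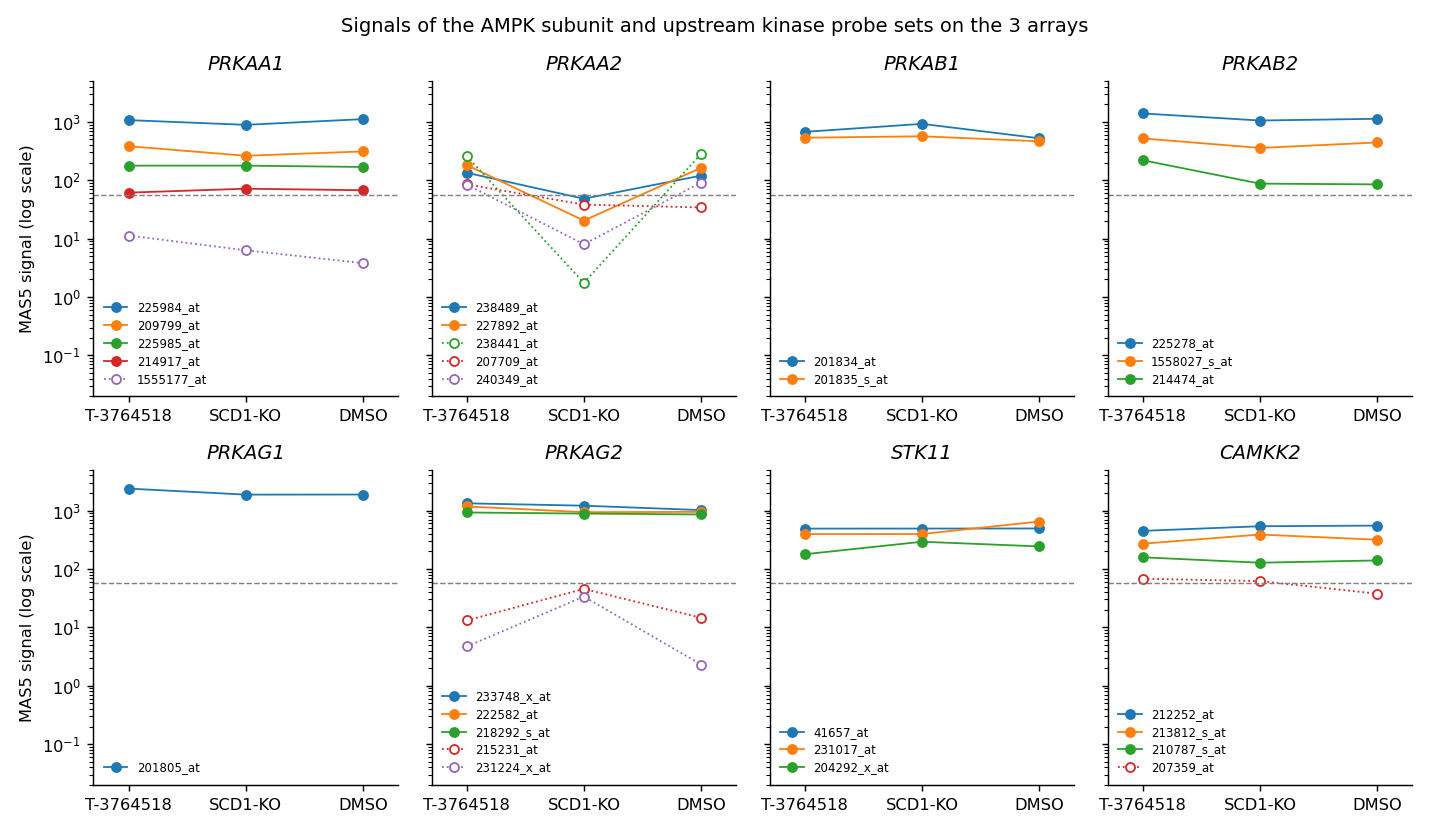
MAS5 signal (log scale) of each of the 28 probe sets on the T-3764518, SCD1-KO and DMSO arrays, 1 panel per gene, with filled points for kept probe sets, open points for those below the filter and a dashed line at a signal of 56.6. Lines join the points of 1 probe set. Of the PRKAA2 probe sets, 4 of 5 dip on the SCD1-KO array, while the kept probe sets of the other genes stay within 2-fold of DMSO except 214474_at of PRKAB2, at 220.0 with T-3764518 and 84.9 with DMSO.

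The panels of signals by array show PRKAA2 and PRKAA1 side by side, and their promoters are printed because these paralogs encode the same kind of subunit but had log2 ratios of -2.16 and -0.09 in SCD1-KO cells. The sequences are the 250 bases before the RefSeq start on GRCh38.p14, 5′ to 3′ on the strand of the gene, with matches to the GC box GGGCGG on either strand in capitals, where matches that overlap run together. PRKAA2 lies on the plus strand at chr1:56645064-56645313 and PRKAA1 on the minus strand at chr5:40798178-40798427.
PRKAA2: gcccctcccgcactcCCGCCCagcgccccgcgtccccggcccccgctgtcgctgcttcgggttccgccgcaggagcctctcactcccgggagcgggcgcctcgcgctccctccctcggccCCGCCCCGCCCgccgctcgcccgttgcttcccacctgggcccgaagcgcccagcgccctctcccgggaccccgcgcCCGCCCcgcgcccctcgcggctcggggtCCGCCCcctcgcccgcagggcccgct
PRKAA1: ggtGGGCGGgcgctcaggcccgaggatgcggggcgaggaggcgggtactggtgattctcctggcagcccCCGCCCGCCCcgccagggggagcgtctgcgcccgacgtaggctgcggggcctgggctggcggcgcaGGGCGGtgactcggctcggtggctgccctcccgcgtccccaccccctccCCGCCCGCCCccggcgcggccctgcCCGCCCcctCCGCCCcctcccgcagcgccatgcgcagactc
Both are rich in G and C, at 83.2% for PRKAA2 and 80.8% for PRKAA1, where the median of 35116 promoters is 58%. PRKAA2 has 39 CpG dinucleotides and PRKAA1 has 31, where the median is 11. The GC box occurs 5 times in PRKAA2 and 8 times in PRKAA1, and 42.6% of all promoters of this length hold at least 1. The other motifs searched on both strands were CCAAT (in 32.0% of promoters), CACGTG (6.34%), TGACGTCA (1.65%) and TATAAA (10.7%), and neither promoter holds any of them in this window. A match is only a run of letters and not a measured binding site.

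The β subunits had log2 ratios of 0.28 and 0.30 with T-3764518 and differed in SCD1-KO cells. PRKAB1 (gene ID 5564), the β1 subunit, had a mean signal of 600.1 with T-3764518, 723 in the knockout and 493 with DMSO. Its log2 ratio in SCD1-KO cells, 0.55, was the highest of the 8 genes and above its SD of 0.34, yet 23.5% of all genes lay at least as far from 0. Probe set 201834_at read 674 with T-3764518, 924 in the knockout and 523 with DMSO. Probe set 201835_s_at read 535 with T-3764518, 566 in the knockout and 464 with DMSO, so the DMSO array was the lowest for both.

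PRKAB2 (gene ID 5565), the β2 subunit, had a mean signal of 542 with T-3764518, 321 in the knockout and 349.0 with DMSO. Its probe sets did not give the same size of difference. The brightest, 225278_at, read 1392 with T-3764518, 1054 in the knockout and 1129 with DMSO. Probe set 1558027_s_at read 519 with T-3764518, 358 in the knockout and 444 with DMSO. The dimmest, 214474_at, read 220.0 with T-3764518, 87.4 in the knockout and 84.9 with DMSO, and was the only kept probe set of the 8 genes at least 2-fold higher with T-3764518. All 3 were highest on the T-3764518 array, with log2 ratios over DMSO of 0.30, 0.23 and 1.37. In SCD1-KO cells the gene's log2 ratio over DMSO was -0.10, within its SD of 0.34, and over T-3764518 it was -0.54.

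The γ subunits had log2 ratios of 0.34 and 0.31 with T-3764518 and were close to DMSO in SCD1-KO cells. PRKAG1 (gene ID 5571), the γ1 subunit, has 1 probe set, which read 2377 with T-3764518, 1873 in the knockout and 1881 with DMSO. The log2 ratio was 0.34 with T-3764518, above the SD of 0.26 at this signal, and -0.01 in SCD1-KO cells, so 1 probe set alone carries this gene. PRKAG2 (gene ID 51422), the γ2 subunit, had a mean signal of 1131 with T-3764518, 1003 in the knockout and 939 with DMSO. Its log2 ratios were 0.31 with T-3764518 and 0.05 in the knockout, with SDs of 0.29 and 0.30. The 3 kept probe sets, 233748_x_at, 222582_at and 218292_s_at, read 1330, 1176 and 926 with T-3764518, 1211, 938 and 887 in the knockout and 1018, 949 and 858 with DMSO. All were highest on the T-3764518 array. The other 2 were under 56.6 on every array, at 13.1 and 4.70 with T-3764518, 45.5 and 33.6 in the knockout and 14.6 and 2.3 with DMSO, and no fold is given for them.

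All 6 subunits had log2 ratios above 0 with T-3764518, from 0.01 to 0.34, and the 4 β and γ subunits lay within 0.28 to 0.34. PRKAA1 was below 0 with the filter at percentile 75 and with its brightest probe set alone, at -0.06, and the other 5 stayed above 0 under all 10 alternatives that left them a value. Of all tested genes, 41.0% were above 0, and a β or γ subunit's distance from 0 was met or passed by 40.6% to 47.8% of them. The gene medians of the β and γ subunits were thus alike in size and common in their distance from 0. Their probe sets were less alike, as those kept ran from 0.23 to 1.37 for PRKAB2 and from 0.11 to 0.39 for PRKAG2. PRKAB2 was at 0.63 with the mean of probe sets and 0.84 without _s_at and _x_at probe sets. Ranked from the lowest of 12321 genes, PRKAB1, PRKAB2, PRKAG1 and PRKAG2 were at 10200, 10337, 10574 and 10389, toward the upper end. In SCD1-KO cells 2 of the 6 subunits were above 0, where 48.9% of all genes were, and with scaling to 1 median PRKAA1, PRKAB2 and PRKAG1 were above 0 too, at 0.05, 0.04 and 0.13.

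**Figure D2:**
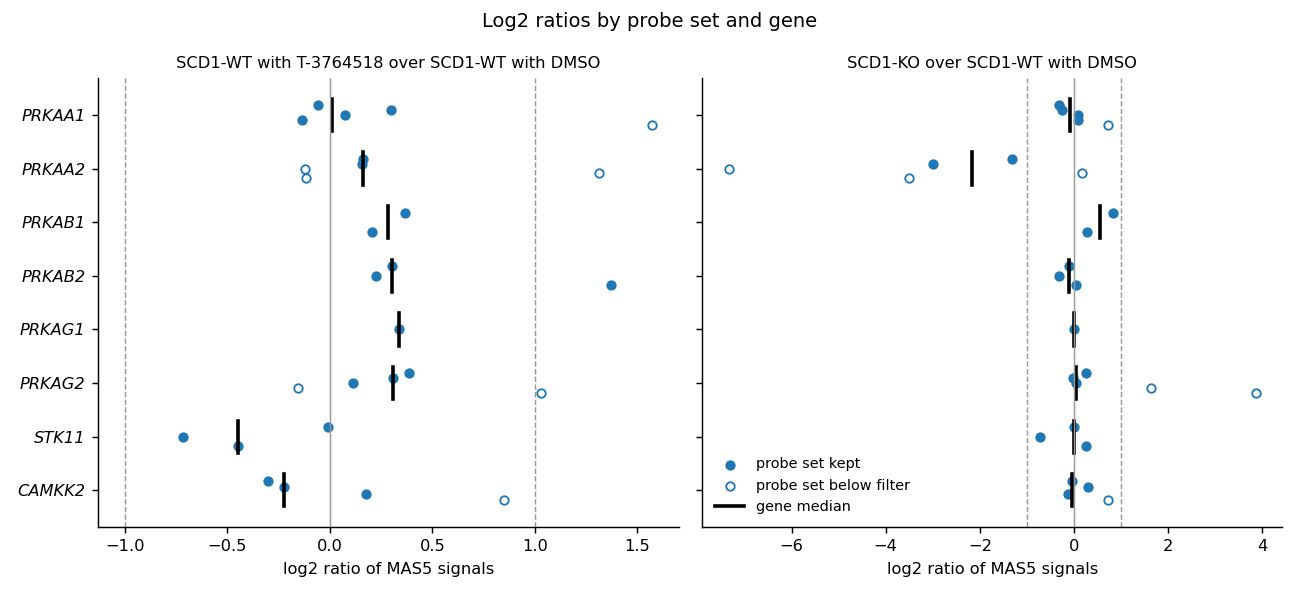
Log2 ratio of MAS5 signals over DMSO for T-3764518 (left) and SCD1-KO (right), 1 row per gene, with filled points for kept probe sets, open points for those below the filter, a bar for the gene median and dashed lines at 2-fold. The horizontal scales differ. Gene medians stay inside the dashed lines in both panels except that of PRKAA2 in SCD1-KO cells, at -2.16.

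The plot of log2 ratios by probe set shows how far the probe sets of each gene differ. STK11 (gene ID 6794), which encodes LKB1, had a mean signal of 326 with T-3764518, 384 in the knockout and 427 with DMSO. Probe set 41657_at read 491 with T-3764518, 491 in the knockout and 493 with DMSO. Probe set 231017_at read 395 with T-3764518, 396 in the knockout and 649 with DMSO. The first was level over the arrays and the second was highest with DMSO. Probe set 204292_x_at read 179 with T-3764518, 292 in the knockout and 243 with DMSO. The gene's log2 ratio of -0.45 with T-3764518 was the lowest of the 8 and passed its SD of 0.34, but it came from this last probe set, whose suffix marks probes that can match other transcripts. The brightest probe set gave -0.01 and 231017_at gave -0.72. Without _s_at and _x_at probe sets the gene was at -0.36. In SCD1-KO cells the gene's log2 ratio was -0.01, the middle of probe sets from -0.71 to 0.27.

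CAMKK2 (gene ID 10645), the calcium-dependent activator of AMPK, had a mean signal of 268 with T-3764518, 299 in the knockout and 290.1 with DMSO. Its log2 ratios of -0.22 and -0.04 were within its SDs of 0.42 and 0.42. Probe sets 212252_at, 213812_s_at and 210787_s_at read 449, 271 and 158 with T-3764518, 539, 388 and 128 in the knockout and 553, 316 and 139.8 with DMSO. They gave ratios of both signs under each condition. Probe set 207359_at, below the filter, read 68.0 with T-3764518, 61.8 in the knockout and 37.7 with DMSO.

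Within ±0.5 on the log2 scale lay 8 of 8 genes with T-3764518 and 6 of 8 in SCD1-KO cells, where 75.2% and 72.9% of all tested genes did. With T-3764518 the 8 genes had a median of 0.22, against -0.09 for all tested genes. The first count depends on the scaling. With scaling to 1 median, PRKAB1, PRKAB2, PRKAG1 and PRKAG2 lay outside ±0.5 with T-3764518, at 0.56, 0.58, 0.62 and 0.59. The median of the 8 genes was then 0.50, against 0.19 for all. In SCD1-KO cells their median was -0.02, against -0.01 for all.

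**Figure D3:**
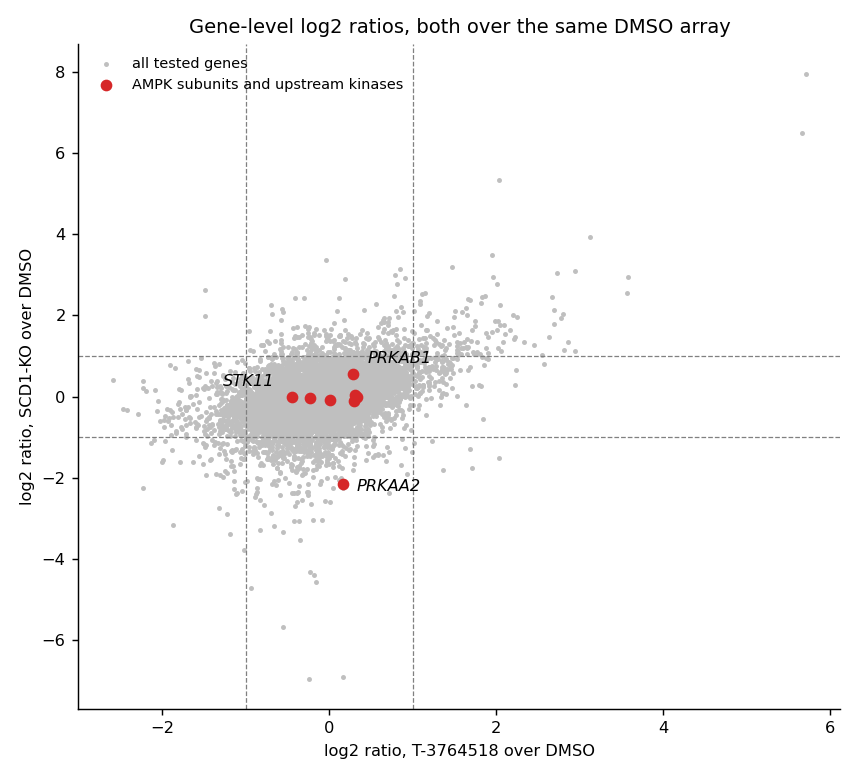
Log2 ratio of SCD1-KO over DMSO (vertical) against that of T-3764518 over DMSO (horizontal) for 12321 tested genes in grey and the 8 genes in red, with dashed lines at 2-fold. Both axes share the DMSO array, so the slope of the grey cloud is not read. PRKAA2 lies below the lower dashed line at 0.16 and -2.16, and the other 7 lie inside the dashed lines.

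On the scatter of all tested genes the nearest neighbours of PRKAA2, by the distance between their pairs of log2 ratios on 3 arrays, were SLFNL1 (0.0878), NECTIN3 (0.0899), HTR7 (0.120), PCSK7 (0.147) and ZNF711 (0.168). NECTIN3, a cell adhesion protein, had a mean signal of 1889 with T-3764518, 354 in the knockout and 1684 with DMSO. HTR7, a serotonin receptor, read 699 with T-3764518, 156 in the knockout and 645 with DMSO. In all, 22 genes lay within 0.5 of PRKAA2. They were picked by closeness on these same arrays, and whether 22 is many was not tested. The radius of 0.5 was under the SD of 0.60 for PRKAA2 in SCD1-KO cells. Its 2 kept probe sets lay further apart than that radius, so which genes count as neighbours is not fixed. Among the epithelial markers the adhesion genes EPCAM and CDH1 were also lower in SCD1-KO cells. EPCAM read 17224 with T-3764518, 6840 in the knockout and 16859 with DMSO, and was 2.46-fold lower in SCD1-KO cells. CDH1, which encodes E-cadherin, had a mean signal of 1197 with T-3764518, 300.1 in the knockout and 835 with DMSO, and was 2.78-fold lower. These 2 of 5 epithelial markers were lower in SCD1-KO cells, as PRKAA2 was, whereas KRT8, KRT18 and KRT19 had log2 ratios of 0.36, 0.26 and 0.34. Whether any of them is linked to PRKAA2 was not tested. CKM, MYH2 and ALB, markers of muscle and liver where PRKAA2 is abundant, had no probe set above 28.5 with T-3764518, 35.8 in the knockout or 37.8 with DMSO.

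The other genes of the pathway, on 6 lists, were mostly within 2-fold. Of 71 listed, 64 had a probe set for that gene alone and 57 were tested. With T-3764518 1 was called higher and 1 lower, and in SCD1-KO cells 0 were called higher and 2 lower, or 3.51% of the tested genes in each condition. Of all tested genes, 2.18% were called higher and 3.30% lower with T-3764518, and 3.12% higher and 3.93% lower in SCD1-KO cells. Most tested genes were thus within 2-fold too, and nothing particular to the pathway is read from these counts or those of each list. Their medians were -0.14 with T-3764518 and -0.10 in the knockout.

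Of the partners of LKB1 and other candidate upstream kinases, 6 of 10 were tested and 0 were called, with medians of 0.14 with T-3764518 and 0.15 in the knockout. CAB39L, a paralog of the LKB1 scaffold MO25, was farthest from 0, with a mean signal of 354 with T-3764518, 187 in the knockout and 292 with DMSO. The γ3 subunit PRKAG3, which is mainly a muscle gene, was dim, at 50.5 with T-3764518, 58.9 in the knockout and 73.7 with DMSO. Of the other kinases that LKB1 phosphorylates, 10 of 12 were tested and 0 were called. SIK3, a salt-inducible kinase, was the farthest of them, with a mean signal of 417 with T-3764518, 215 in the knockout and 334 with DMSO. None of the tested genes of these lists differed by as much as PRKAA2. BRSK1, an LKB1 substrate lower in SCD1-KO cells on its 1 probe set, was below the filter and was not among them, and no fold is given for it.

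Of the phosphatases, folliculin partners and ubiquitin ligases that act on AMPK, 9 of 12 were tested and 0 were called. UBE2O, a ubiquitin-conjugating enzyme that targets AMPK α2, had a mean signal of 124 with T-3764518, 264 in the knockout and 243 with DMSO, but its probe sets ran from -2.11 to 0.17 with T-3764518. Of the enzymes that make or remove AMP, 4 of 7 were tested and 0 were called. AK4, a mitochondrial adenylate kinase, was farthest, at 528 with T-3764518, 577 in the knockout and 892 with DMSO.

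The calls were in the longest list, the AMPK substrates, of which 27 of 29 were tested. They made 7.41% of the tested substrates in each condition, which is near the shares of all genes called higher and lower (2.18% and 3.30% with T-3764518, 3.12% and 3.93% in the knockout), so nothing particular to the substrates is read from the count. GFPT1, the rate-limiting enzyme of the hexosamine pathway, had a mean signal of 3340 with T-3764518, 2504 in the knockout and 1330 with DMSO. It was called with T-3764518, at 2.64-fold higher, and fell short of the call in SCD1-KO cells at a log2 ratio of 0.91. With scaling to 1 median, 1 pathway gene was called higher in SCD1-KO cells, against 0 with the signals as deposited. LIPE, hormone-sensitive lipase, read 43.2 with T-3764518, 46.8 in the knockout and 104.8 with DMSO on its 1 kept probe set. It was called lower in both, but with signals raised to 56.6 it was at least 1.85-fold lower in each, under the threshold. TBC1D1, a regulator of glucose transporter traffic, had a mean signal of 289 with T-3764518, 223 in the knockout and 417 with DMSO. Its log2 ratio of -1.06 in SCD1-KO cells was the middle of probe sets from -1.74 to 0.23.

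**Figure D4:**
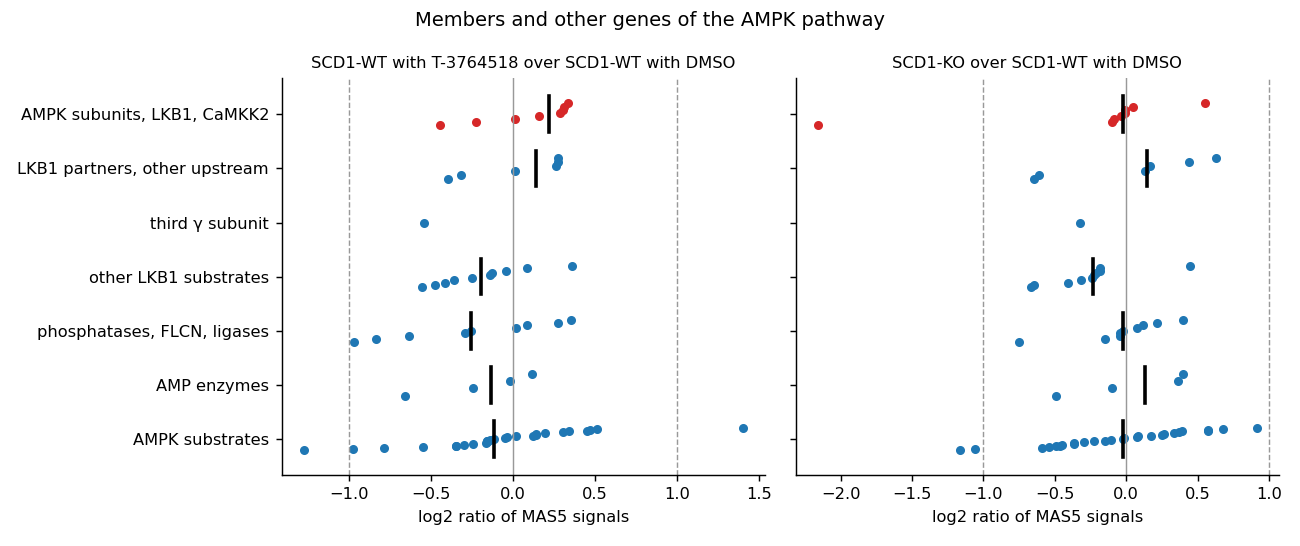
Log2 ratio over DMSO of each tested gene for T-3764518 (left) and SCD1-KO (right), by list, with the 8 genes in red, other lists in blue, a bar for each list's median and dashed lines at 2-fold. The horizontal scales differ. Outside the dashed lines lie PRKAA2 on the right and, among the substrates, 2 genes in each panel.

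The plot by list places the 8 genes beside their pathway. The listed substrates spread more widely with T-3764518, from -1.28 to 1.40, than the 8 genes did, from -0.45 to 0.34, and in SCD1-KO cells PRKAA2 was the lowest of all.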

How the data were processed

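RNA of HCT-116 cells in 3 conditions, 1 array each, was hybridised to Human Genome U133 Plus 2.0 arrays. For each probe set the authors deposited 1 linear signal intensity. The submitters' processing notes name MAS5, with a version not given in the sources used. Median signals were 56.7 with T-3764518, 62.4 in the knockout and 68.8 with DMSO, and the number of arrays limits the precision.

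All further steps used matplotlib 3.10.9, statsmodels 0.14.6, scipy 1.17.1, pandas 2.3.3 and numpy 2.4.6 under Python 3.11.15. The steps were also run on simulated arrays with planted changes and the same noise at every signal. This checks the computation only and says nothing on whether the call of PRKAA2, a dim gene, is right. Of 54675 probe sets, 41097 carry 1 symbol in the platform annotation, 1801 several and 11777 are not listed. Without the 62 controls, 41037 were matched by gene ID to RefSeq genes of GRCh38.p14, and 0 symbols were renamed. Probe sets were kept at percentile 50 of mean log2 signal, which left 23192 for 12321 genes. Promoters were found for 8 of 8 genes.

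The genes and lists were chosen with earlier results of these data known. Named were all 8 genes, the called genes of each other list (up to 3 per ratio, or the 1 farthest from 0), the 5 genes closest to PRKAA2, SCD and the markers. Alternatives were quantile normalization, scaling to 1 median, lowess correction, a filter at percentile 75 or none, an offset of 16.5, a floor at 56.6, the brightest probe set, the mean of probe sets, no _s_at or _x_at probe sets, and thresholds of 1.5-fold and 3-fold.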

Additional observations from a re-analysis of the deposited data

Results flagged for a closer look

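One probe set of PRKAA2 was marked because its signal lies outside the values used for the gene. Probe set 207709_at, below the filter, read 85.1 with T-3764518, 38.3 in the knockout and 34.2 with DMSO. Only the T-3764518 signal was above the filter level of 56.6. Against that level as a floor for DMSO it was higher with T-3764518 by at least 1.5-fold, whereas the 2 kept PRKAA2 probe sets had log2 ratios of 0.16 and 0.16.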

How the results depend on the processing

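The call of PRKAA2 as lower in SCD1-KO cells held under 9 of the 10 alternatives of processing. With the filter at percentile 75 no probe set of PRKAA2 was left, and 0 members were called lower. Its log2 ratio over DMSO ran from -3.0 without a filter to -1.31 with the floor, with -1.32 from the brightest probe set. Of 167 values of single genes under the alternatives, 156 stayed within the spread between probe sets and 11 moved further. The sign changed in 12 values, over 6 of the 8 genes, and in 0 called values, which are those of PRKAA2. Among the 11, PRKAA2 moved in SCD1-KO cells over DMSO and over T-3764518 without a filter, with the floor and with the brightest probe set. Among those that moved with T-3764518, PRKAB2 reached 0.84 without _s_at and _x_at probe sets, PRKAG1 0.62 with scaling to 1 median, and STK11 -0.01 with the brightest probe set. STK11 in SCD1-KO cells was -0.36 with the filter at percentile 75. Scaling to 1 median raised the median of all genes by 0.28 with T-3764518 and 0.14 in the knockout, and CAMKK2 with T-3764518 was then 0.05. Pathway genes called lower numbered 0 with T-3764518 and 1 in the knockout with the floor, against 1 and 2 without it. The causes were not tested.

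Calls over all genes, given as higher and lower with T-3764518 and then in SCD1-KO cells, were 269, 407, 385 and 484. They were 1680, 2870, 1783 and 2988 without a filter, and 150, 69, 151 and 173 with the filter at percentile 75. They were 816, 1516, 1226 and 1409 at 1.5-fold, and 84, 70, 106 and 135 at 3-fold. With T-3764518 363 were higher and 262 lower after quantile normalization, 365 and 244 after lowess correction, and 235 and 270 with the offset. Precision is limited by 1 array per condition and by signals near the filter level.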

Other observations

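One gene outside those named by the rule was chosen after its values were seen. BRSK1, a brain-selective kinase that LKB1 phosphorylates, has 1 probe set, which was below the filter. It read 77.7 with T-3764518, 12.3 in the knockout and 82.2 with DMSO, so only the SCD1-KO signal was under the filter level of 56.6. With that signal raised to the filter level, the difference from DMSO falls short of 2-fold.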
